A study of Homo sapiens with 4 samples.

Results

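NRAS, HRAS, BCL2, MYC, VEGFA, ADAM10, FGF2 and ZIC1 are 8 genes whose mRNAs are known from reporter studies to carry RNA G-quadruplexes (rG4s), mostly in the 5′ UTR. They were taken by symbol from a table of 26490 genes that lists DHX36 binding measured by PAR-CLIP, and each symbol matched 1 line. The rule that chose them uses their names and no measured value, but it was set with earlier results of these data known.

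An rG4 forms when runs of guanines in an RNA stack in planar layers held by a monovalent cation. In a 5′ UTR such a fold can hinder the scanning ribosome, and in some viral and cellular leaders it lies within an internal ribosome entry site. DHX36, also called RHAU, is a DEAH-box helicase that binds parallel quadruplexes and unwinds them using ATP. In PAR-CLIP, 4-thiouridine built into new RNA is crosslinked to the bound protein by UV light, and the crosslinked base is read as a T-to-C change. Clusters of reads with such changes mark contact sites.

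The PAR-CLIP was done in HEK293, a human embryonic kidney cell line. One line stably expressed, under a tetracycline-inducible promoter, HA-Flag-DHX36-iso2 (FH-DHX36). The other expressed HA-Flag-DHX36-iso1-E335A (FH-DHX36-E335A), which carries a mutation that removes helicase activity and is also called the mutant here. Both lines were induced with 500 ng/ml tetracycline for 15 h, labelled with 4-thiouridine and irradiated at 365 nm for 5 min, and both kept their endogenous DHX36. The lines differ in isoform as well as in the mutation, and the 2 cannot be told apart. There were 2 samples per line, which the deposited table combines into 1 value per gene and line, so that no spread between replicates could be given and no difference was tested.

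The table counts crosslinked reads and clusters for the whole gene and for its introns, CDS and both UTRs, and what remains of the gene total is called other annotation here. The FH-DHX36 PAR-CLIP held 2160413 crosslinked reads and the FH-DHX36-E335A PAR-CLIP 8752127, which is 4.05 times as many. Only reads within called clusters are listed, and the lowest gene total above 0 was 6 reads in the FH-DHX36 PAR-CLIP and 5 in that of FH-DHX36-E335A. A value of 0 therefore means that no cluster was listed. Intervals are 95% Wilson intervals for shares and 95% intervals for ratios. They cover counting error at most and no spread between replicates. Reads amplified by PCR are not independent molecules, so that the intervals can be too narrow even for counting error.

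The G runs that could fold into an rG4 are shown first because they give the place where 5′ UTR binding could be looked for. Each match holds 4 runs of at least 3 G separated by 1 to 7 nt on the strand of the mRNA, and was read from GRCh37 with the canonical transcripts of GENCODE release 44. Capitals mark the G runs and T stands for U.
BCL2, 5′ UTR, chr18:60985942-60985966, minus strand: GGGGGccgtGGGGtGGGagctGGGG
FGF2, 5′ UTR, chr4:123748197-123748220, plus strand: GGGcGGGaggctGGGGGGccGGGG
ZIC1, 5′ UTR, chr3:147127854-147127880, plus strand: GGGtGGGGGGGGcGGGGGaggccGGGG
These 3 of 8 genes held a match in the canonical 5′ UTR, against 6.84% of 19080 canonical 5′ UTRs. Because the genes were chosen for reported rG4s, a higher share than over all genes follows from that choice. The same holds for the shares under other rules given below. The match ended 42 nt before the start codon in BCL2, 109 nt before it in FGF2 and 19 nt before it in ZIC1. In another FGF2 transcript, FGF2-201, the CDS starts at a CTG 399 nt before the first in-frame ATG. The FGF2 match is thus annotated as CDS in FGF2-201. The members' 5′ UTRs ran from 131 nt in NRAS to 882 nt in BCL2, against a median of 136 nt over all genes.

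In NRAS, VEGFA, ADAM10 and HRAS the G runs lay outside the canonical 5′ UTR of this annotation. For NRAS, VEGFA and ADAM10 they were found in the 300 nt upstream of the annotated transcript start, a window added after the first result was seen. With this window 6 of the 8 genes held a match, against 24.8% of all 19080. For HRAS the match lay in the 5′ UTR of another transcript, HRAS-203. MYC had a match of 30 nt in the 5′ UTR of 2 other transcripts, MYC-212 and MYC-213, and in its canonical 5′ UTR a match if loops of up to 12 nt were allowed. Over any protein-coding transcript, 5 of the 8 genes held a match, against 14.1% of all genes. The transcript starts used by the authors came from GENCODE v19 and were not analysed here.
NRAS, upstream, chr1:115259484-115259501, minus strand: GGGaGGGGcGGGtctGGG
VEGFA, upstream, chr6:43737860-43737879, plus strand: GGGGcGGGccGGGGGcGGGG
ADAM10, upstream, chr15:59042093-59042112, minus strand: GGGGGacGGGtaGGGGcGGG
HRAS, 5′ UTR of HRAS-203, chr11:535275-535291, minus strand: GGGtGGGtGGGGccGGG
Between the match and the annotated start lay 91 nt in NRAS, 68 nt in VEGFA and 186 nt in ADAM10. If runs of 2 G were accepted, 7 of the 8 canonical 5′ UTRs held a match, NRAS being the exception, but so did 53.8% of all canonical 5′ UTRs. The longest such match in the canonical 5′ UTR is given for the genes without runs of 3 G there.
HRAS, 5′ UTR, chr11:535443-535462, minus strand: GGcctcGGccccGGccctGG
VEGFA, 5′ UTR, chr6:43738035-43738057, plus strand: GGaccGGtcagcGGactcaccGG
ADAM10, 5′ UTR, chr15:59041737-59041753, minus strand: GGcGGcagcGGcagcGG
VEGFA also has G runs downstream of a CTG start codon, in a stretch annotated as CDS that runs for 540 nt before the first in-frame ATG. Part of it, chosen after the search, is shown because a reader may know it as 5′ UTR.
VEGFA, CTG-started CDS, chr6:43738719-43738732, plus strand: GGaGGaGGGGGaGG
A match in these letters is a description and not a site of binding.

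**Figure D1:**
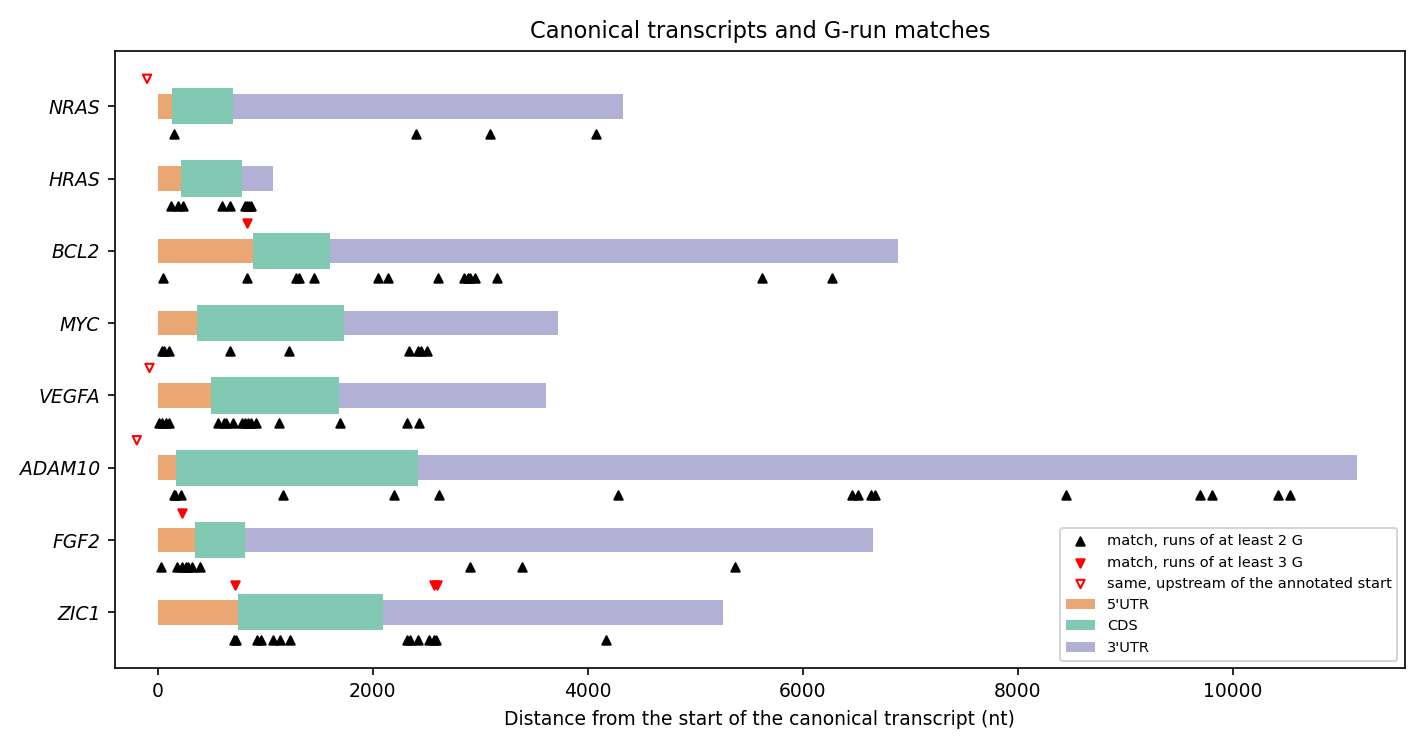
Canonical transcripts of the 8 genes, drawn to scale from the transcript start in nt, with the 5′ UTR, CDS and 3′ UTR as bars and G-run matches as triangles. Filled red triangles (runs of at least 3 G) lie in the 5′ UTR of BCL2, FGF2 and ZIC1 and in the 3′ UTR of ZIC1, and open red triangles upstream of NRAS, VEGFA and ADAM10.

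In the FH-DHX36 PAR-CLIP none of the 8 genes had a crosslinked read assigned to the 5′ UTR. The 6 genes with a cluster (NRAS, HRAS, BCL2, MYC, VEGFA and ADAM10) had their 7191 reads in the CDS and the 3′ UTR. Over all genes 22.4% had a cluster in this PAR-CLIP, and 22% of genes with an exonic cluster had one in the 5′ UTR. In the CDS 4 of the 6 had a cluster (55.3% of genes with an exonic cluster) and in the 3′ UTR all 6 did (61.9%). With 6 genes, a background of 22% for the 5′ UTR sets no firm expectation for a count of 0.

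With FH-DHX36-E335A 7 of the 8 genes had a cluster, all but ZIC1, against 34.5% of all genes. A 5′ UTR cluster was listed for 2 of the 7, MYC and NRAS, against 21.8% of genes with an exonic cluster. A CDS cluster was listed for 6 (69.7%) and a 3′ UTR cluster for all 7 (84%). The counts by region were thus close to those of other genes with clusters. In each of the 7 genes, the 3′ UTR held more reads than the CDS, not scaled to region length. Per nt of the canonical transcript, the CDS was denser in 4 of them and the 3′ UTR in 3.

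Summed over the genes, 674 of 12751 exonic reads lay in the 5′ UTR with FH-DHX36-E335A, which is 5.29% (4.91 to 5.69), beside 5.21% over all genes. MYC alone supplied 640 of these, and without it the share was 0.311%. With FH-DHX36 the share was 0 of 7191 exonic reads, beside 10.7% over all genes. The 3′ UTR share was 10.3% with FH-DHX36 but 81.7% with the mutant, where all genes had 51.4% and 71.9%. NRAS held 90.5% of the FH-DHX36 reads of these genes, and without NRAS the 3′ UTR share with FH-DHX36 was 57.9%.

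**Figure D2:**
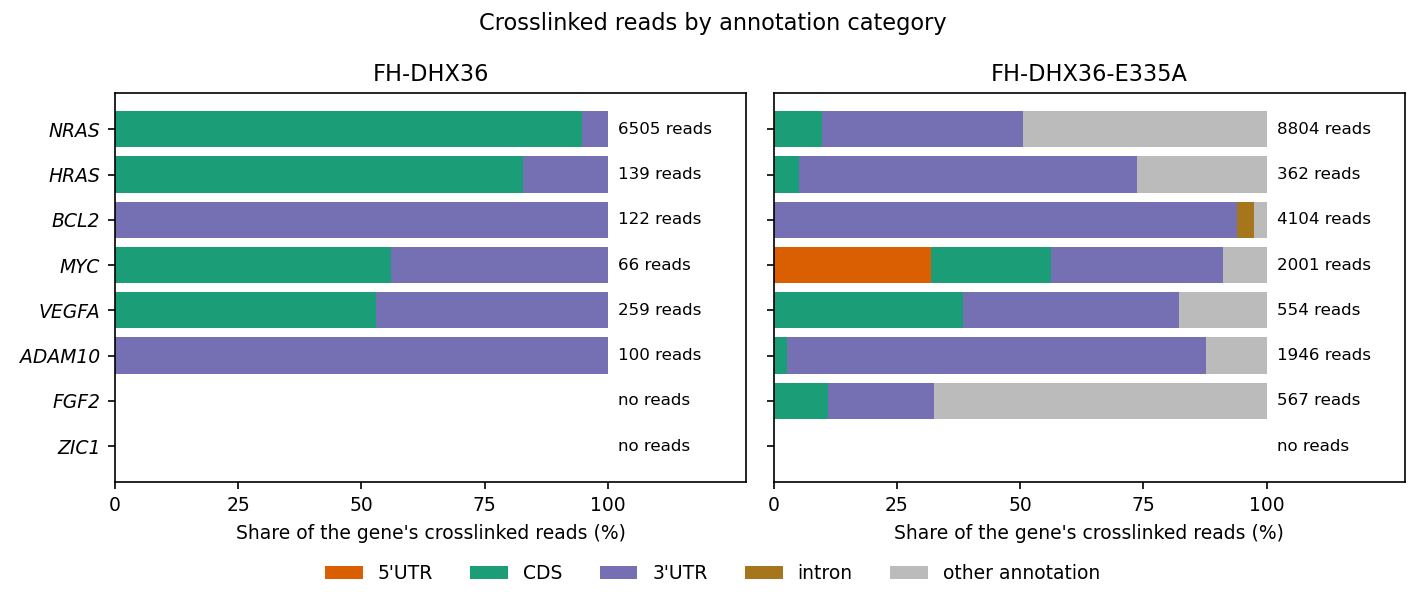
Share of each gene's crosslinked reads (percent) by annotation category, coloured as the legend gives, with the FH-DHX36 PAR-CLIP on the left and FH-DHX36-E335A on the right, and the gene's total reads beside each bar. MYC with FH-DHX36-E335A is the 1 bar with a visible 5′ UTR part, since the 34 NRAS reads there are too few of 8804 to be seen.

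NRAS and HRAS encode small GTPases that relay growth factor signals to the MAP kinase pathway. NRAS (chr1:115247090-115259392) had the most reads of the 8 genes in both PAR-CLIPs, and their place differed between the lines. With FH-DHX36 the NRAS CDS held 6163 of 6505 reads in 2 clusters, and the 3′ UTR held 342 reads in 5 clusters. With FH-DHX36-E335A the CDS held 826 reads in 2 clusters, the 3′ UTR 3595 in 21 clusters and the 5′ UTR 34 in 1 cluster. The CDS share of exonic reads was 94.7% (94.2 to 95.3) with FH-DHX36 but 18.5% (17.4 to 19.7) with the mutant, so that the counting intervals did not overlap.

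By CDS reads NRAS ranked 7 among all genes with FH-DHX36 but 333 with the mutant. Scaled to the total reads of each PAR-CLIP, the CDS was 30.2 times higher with FH-DHX36, whereas the 3′ UTR was 2.59 times higher with FH-DHX36-E335A. Per 100 nt of region, the CDS held 1081 reads and the 3′ UTR 9.43 with FH-DHX36. The corresponding counts with FH-DHX36-E335A were 145 in the CDS, 99.2 in the 3′ UTR and 26.0 in the 5′ UTR. The 2 CDS clusters with FH-DHX36 held 3082 reads on average, where the median over genes was 50 reads per CDS cluster. Because the table lists no cluster positions, the place of these reads within the CDS was not analysed here.

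NRAS with FH-DHX36-E335A also had 4349 reads in 2 clusters of other annotation, which is more than in its 3′ UTR, and it ranked 55 by such reads among all genes. No read of this kind was listed for NRAS with FH-DHX36. A cluster of other annotation was listed for all 7 bound members with FH-DHX36-E335A and for none of the 6 with FH-DHX36, where the backgrounds were 45.4% and 20.9% of genes with a cluster. With FH-DHX36-E335A 9 of 15 bound relatives of the members, described below, also had one. In the lists of reported 5′ UTR and of 3′ UTR or coding quadruplexes, 6 of 8 and 2 of 4 bound genes did. The corresponding counts with FH-DHX36 were 2 of 11, 0 of 5 and 0 of 3. Bound members had a median of 1946 reads with FH-DHX36-E335A, against 326 over all bound genes. What the category holds is not given in the sources used here.

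HRAS (chr11:532242-535576) shared with NRAS the high CDS share with FH-DHX36 and the high 3′ UTR share with FH-DHX36-E335A, at far fewer reads. With FH-DHX36 it had 115 CDS reads and 24 3′ UTR reads, each in 1 cluster. With FH-DHX36-E335A it had 19 CDS reads in 1 cluster, 248 3′ UTR reads in 3 clusters and 95 reads of other annotation. The CDS share was 82.7% (75.6 to 88.1) with FH-DHX36 but 7.12% (4.60 to 10.8) with the mutant. Scaled to total reads, the HRAS CDS was 24.5 times higher with FH-DHX36 and its 3′ UTR 2.55 times higher with FH-DHX36-E335A. The CDS ratios of NRAS and HRAS were given no intervals. That of HRAS rests on 115 reads against 19, each in 1 cluster. Whether the CDS shift was similar in size in both RAS genes was therefore not tested. Over all genes the CDS share of exonic reads was also lower with the mutant, 22.85% against 37.96% with FH-DHX36. No 5′ UTR read was listed for HRAS in either PAR-CLIP.

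BCL2, the founding inhibitor of apoptosis of its family, had exonic reads in the 3′ UTR alone. With FH-DHX36 it had 122 reads in 1 cluster. With FH-DHX36-E335A (gene at chr18:60790579-60987002) it had 3861 3′ UTR reads in 8 clusters, 134 intron reads in 6 clusters and 109 reads of other annotation in 1 cluster. Its 5′ UTR, which holds the G runs shown above, and its CDS had 0 reads in both. The 3′ UTR held 2.31 reads per 100 nt with FH-DHX36 and 73.1 with the mutant, not scaled to depth. Scaled to total reads, the BCL2 3′ UTR was 7.81 times higher with FH-DHX36-E335A.

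MYC, a transcription factor that drives cell growth and division, was the member with the most 5′ UTR reads. With FH-DHX36-E335A (gene at chr8:128748477-128755197) it had 640 reads in 1 5′ UTR cluster, 486 in 6 CDS clusters, 697 in 5 3′ UTR clusters and 178 in 2 clusters of other annotation. The 5′ UTR share of exonic reads was 35.1% (32.9 to 37.3). It ranked 92 among all genes by 5′ UTR reads, and 6.28% of the 6151 genes with at least 100 exonic reads had a 5′ UTR share as high or higher. Per 100 nt the MYC 5′ UTR held 176 reads, the CDS 35.6 and the 3′ UTR 35.0, so that the 5′ UTR was the densest region. The canonical MYC coding sequence starts at a CTG, 45 nt before the first in-frame ATG. CASC11 lies on the opposite strand over 3554 nt of MYC, and whether reads were assigned by strand is not given in the sources used here.

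With FH-DHX36 MYC had 66 reads, 37 in 1 CDS cluster and 29 in 1 3′ UTR cluster. No 5′ UTR read was listed. The MYC CDS share there was 56.1% (44.1 to 67.4), an interval that is wide at this depth.

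VEGFA, a secreted growth factor for blood vessels, had reads divided between the CDS and the 3′ UTR in both PAR-CLIPs. With FH-DHX36 it had 137 CDS and 122 3′ UTR reads, in 2 clusters each. With FH-DHX36-E335A it had 213 reads in 1 CDS cluster, 242 in 3 3′ UTR clusters and 99 of other annotation. The CDS share was 52.9% (46.8 to 58.9) with FH-DHX36 against 46.8% (42.3 to 51.4) with the mutant, and these intervals overlapped. In release 44 the CDS (gene at chr6:43737948-43754224) includes the CTG-started stretch with the G runs shown above. The authors' categories came from GENCODE v19, and whether reads in that stretch were counted as CDS or as 5′ UTR was not analysed here. The table lists no cluster positions.

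ADAM10, the α-secretase that sheds the ectodomain of amyloid precursor protein and Notch receptors, was bound mainly in the 3′ UTR. With FH-DHX36 all 100 reads lay in 1 3′ UTR cluster. With FH-DHX36-E335A (gene at chr15:58881008-59041906) 1652 reads lay in 9 3′ UTR clusters, 54 in 2 CDS clusters and 240 in 2 clusters of other annotation. The 3′ UTR share of exonic reads was 96.8% (95.9 to 97.6) with FH-DHX36-E335A. Its 3′ UTR is the longest of the 8 at 8738 nt, and held 18.9 reads per 100 nt.

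FGF2, a fibroblast growth factor with several translation starts, was listed in the FH-DHX36-E335A PAR-CLIP alone. It had 63 reads in 2 CDS clusters, 121 in 2 3′ UTR clusters and 383 in 2 clusters of other annotation (gene at chr4:123747986-123819391). Of all genes, 13.1% were likewise listed for the mutant PAR-CLIP alone. NUDT6 lies on the opposite strand over 9540 nt of FGF2. Its part in the FGF2 reads was not tested.

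ZIC1, a zinc finger transcription factor of the developing nervous system (chr3:147127152-147134506), had 0 reads in both PAR-CLIPs, as did 64.5% of all genes. It holds G-run matches in the 5′ UTR and, 2 of them, in the 3′ UTR. Abundance can be recovered from the table only for bound genes, so that for ZIC1 this table cannot tell a lack of RNA from a lack of binding. RNA-seq values were not used here.

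**Figure D3:**
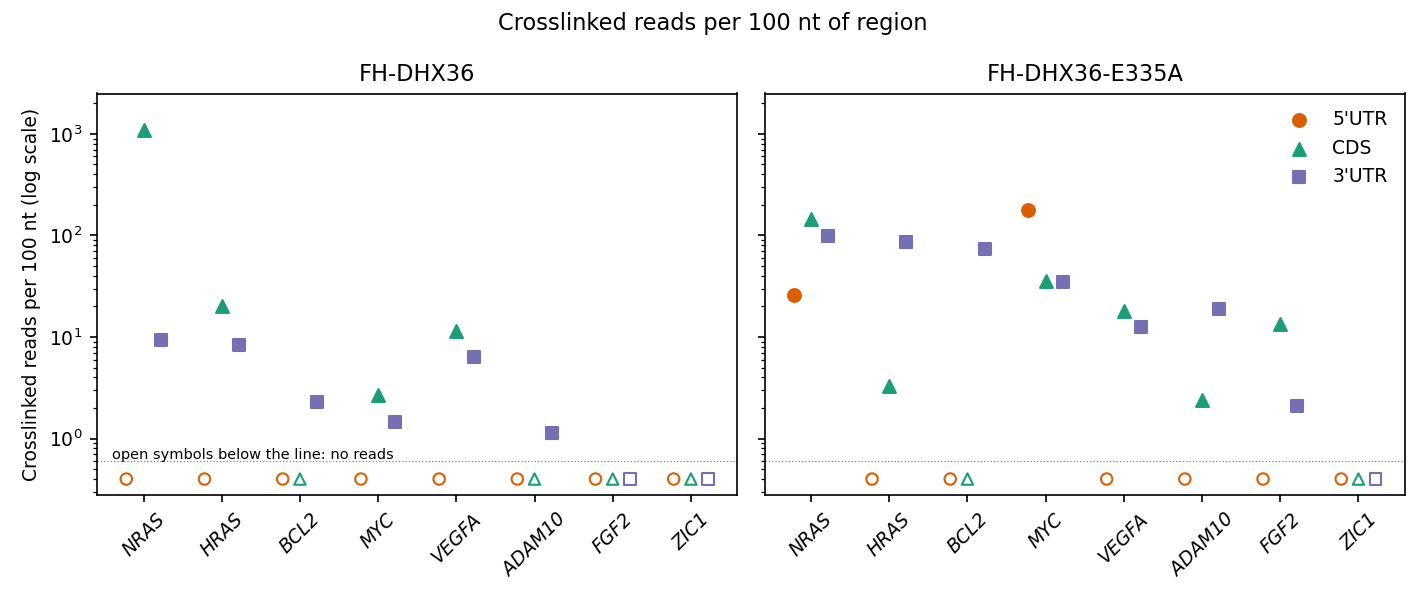
Crosslinked reads per 100 nt of the canonical 5′ UTR, CDS and 3′ UTR (log scale) for the 8 genes, with FH-DHX36 on the left and FH-DHX36-E335A on the right, and open symbols below the dotted line for regions with no listed read. All 5′ UTR symbols with FH-DHX36 are open, and the NRAS CDS at 1081 is the highest point. Reads are not scaled to depth, so that heights compare regions within a panel and not between the panels.

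Over the whole gene, the share of all crosslinked reads was higher with FH-DHX36-E335A for BCL2, MYC and ADAM10, whereas NRAS, VEGFA and HRAS had the higher share with FH-DHX36. BCL2 had 56.5 reads per 1000000 crosslinked reads (RPM) with FH-DHX36 but 469 RPM with the mutant, a ratio of 8.30 (6.94 to 9.94). MYC had 30.5 and 229 RPM, a ratio of 7.48 (5.86 to 9.56). ADAM10 had 46.3 and 222 RPM, a ratio of 4.80 (3.93 to 5.87). These 3 stood above 97.4%, 96.8% and 91.9% of the 5669 genes with clusters in both, whose median ratio was 1.09. A share at least 2 times higher with FH-DHX36-E335A was listed for 28.6% of those genes.

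NRAS had 3011 RPM with FH-DHX36 but 1006 RPM with the mutant, which is 2.99 times higher (2.90 to 3.09) with FH-DHX36. VEGFA had 120 and 63.3 RPM, 1.89 times higher (1.63 to 2.19), and HRAS 64.3 and 41.4, 1.56 times higher (1.28 to 1.89). At least 2 times higher with FH-DHX36 were NRAS among these 3 and 24.8% of the genes bound in both. The FH-DHX36-E335A over FH-DHX36 ratio from exonic reads only was 0.171 for NRAS, 0.438 for VEGFA and 0.479 for HRAS, so that on this scale VEGFA and HRAS were also past 2 times.

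**Figure D4:**
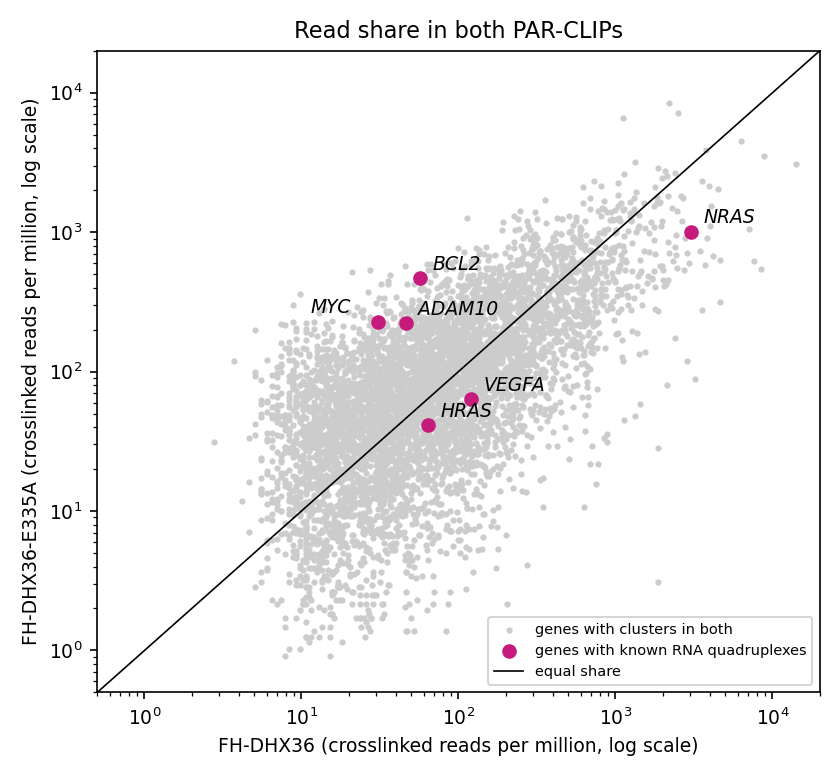
Crosslinked reads per 1000000 reads of the PAR-CLIP (both axes log) of each of the 5669 genes with clusters in both PAR-CLIPs, FH-DHX36 against FH-DHX36-E335A, with the 6 members bound in both in colour and the line of equal share. BCL2, MYC and ADAM10 lie above the line, and NRAS, VEGFA and HRAS below it.

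NXPM, the score used by the authors, divides RPM by RNA abundance, and the order of the genes on it differs from that by reads. With FH-DHX36-E335A NXPM was 434 for BCL2, 120 for FGF2, 110 for NRAS, 85.1 for ADAM10, 12.2 for VEGFA, 7.85 for MYC and 0.358 for HRAS. With FH-DHX36 it was 330 for NRAS, 52.3 for BCL2, 23.1 for VEGFA, 17.7 for ADAM10, 1.05 for MYC and 0.556 for HRAS. BCL2 ranked 91 and FGF2 380 among all genes with FH-DHX36-E335A by NXPM, but 416 and 3310 by reads. NRAS ranked 100 with FH-DHX36 by NXPM and 21 by reads. The abundance recovered from the table was 0.539 for FGF2, 1.08 for BCL2, 2.61 for ADAM10, 5.18 for VEGFA, 9.11 for NRAS, 29.1 for MYC and 116 for HRAS, in units of the authors' RNA-seq that resemble FPKM. HRAS had the highest abundance and, with FH-DHX36-E335A, also the fewest reads of the 7, and its NXPM was the lowest. FGF2 had the lowest abundance and ranked higher by NXPM than by reads.

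Relatives of the members, 23 genes of the RAS, BCL2, MYC, VEGF, ADAM, FGF and ZIC families, were compared by summed exonic reads. With FH-DHX36 the CDS held 27.4% of the relatives' reads and the 3′ UTR 71.2%, where the members had 89.7% and 10.3%. Without NRAS the members had 42.1% and 57.9%, so that much of this contrast came from NRAS. Of the relatives' 6531 exonic reads with FH-DHX36, MCL1 held 2853 and BCL2L11 1450. With the mutant the CDS held 9.98% of the relatives' reads and the 3′ UTR 89.6%, beside 13.0% and 81.7% in the members. The 5′ UTR share of the relatives was 1.32% with FH-DHX36 but 0.465% with the mutant. A cluster was listed for 11 of the 23 with FH-DHX36 (22.4% of all genes) and for 15 with the mutant (34.5%). A 5′ UTR cluster was listed for 2 of 11 and 2 of 14 relatives with an exonic cluster, beside 22% and 21.8%. The relatives with 5′ UTR reads were MAX (56), the dimerization partner of MYC, and MYCL (30) with FH-DHX36, and VEGFC (79) and FGF9 (30) with FH-DHX36-E335A. None of these 4 had 5′ UTR reads in both PAR-CLIPs. ZIC2, a relative of the unbound ZIC1, had 1257 reads with FH-DHX36 and 1917 with the mutant. MCL1, a relative of BCL2, had 2853 and 12063. These counts are not scaled to depth, which was 4.05 times higher for the mutant, so that they show no rise in the mutant by themselves.

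Another 13 genes have a 5′ UTR quadruplex reported in reporter studies. Of these, 5 were bound with FH-DHX36 (22.4% of all genes) and 8 with FH-DHX36-E335A (34.5%). A 5′ UTR cluster was listed for 1 of the 5, THRA (80 reads), where 22% of genes with an exonic cluster had one. Of the 8, 7 had an exonic cluster and 0 a 5′ UTR cluster, beside 21.8%. Genes this few set no firm expectation. Of 7 genes with a reported 3′ UTR or coding quadruplex, 3 were bound by FH-DHX36 (22.4% of all genes) and 4 by the mutant (34.5%). All of these had 3′ UTR reads, as did 61.9% and 84% of genes with an exonic cluster. PIM1, a kinase, was the 1 gene of that list with 5′ UTR reads, 22 with FH-DHX36-E335A.

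**Figure D5:**
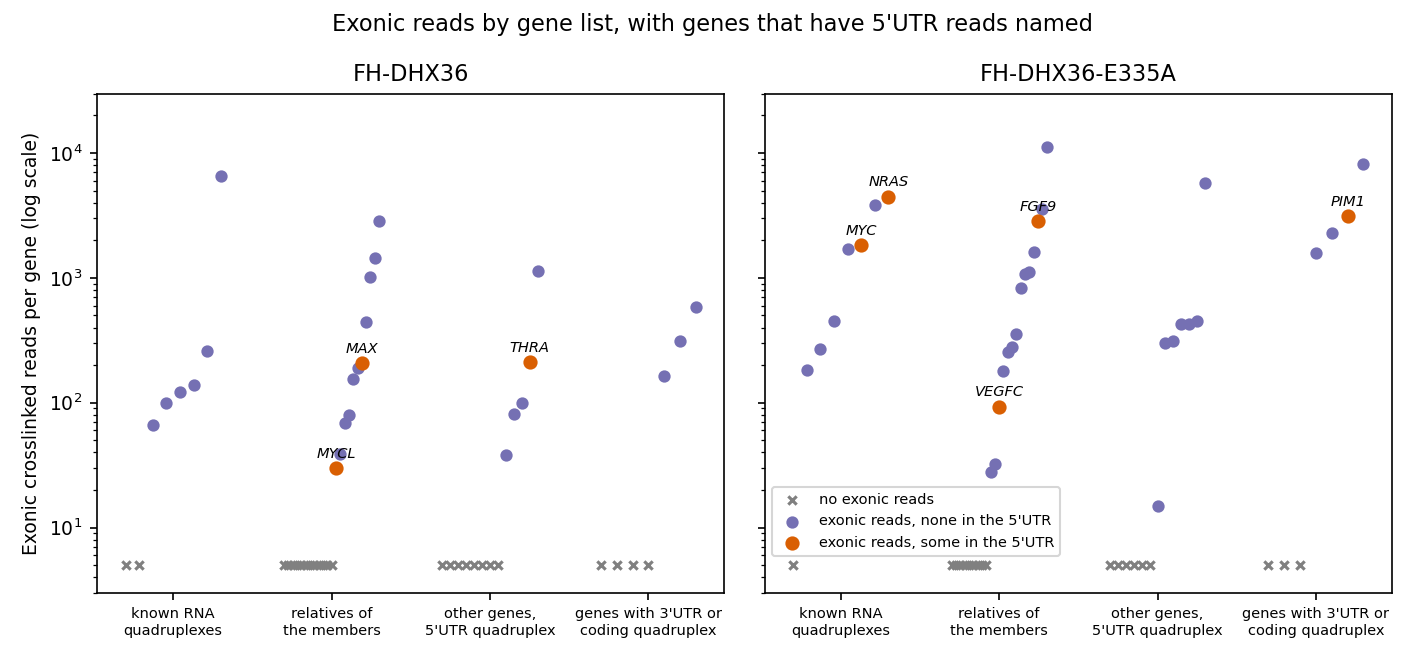
Exonic crosslinked reads per gene (log scale) for the 8 genes, their 23 relatives, 13 other genes with a reported 5′ UTR quadruplex and 7 with a reported 3′ UTR or coding quadruplex. Genes with 5′ UTR reads are in orange and named, and crosses at the foot mark genes with no exonic reads at an arbitrary height.

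The genes whose division of FH-DHX36-E335A reads over the 5 categories was most like that of a member were found among 6877 genes with at least 100 reads. The measure was the percent of reads that would have to change category. PSMD10 was nearest to NRAS (0.941%), KIAA0430 to HRAS (1.23%), STARD9 to BCL2 (1.09%), KEAP1 to VEGFA (0.728%), POLDIP3 to ADAM10 (0.642%) and H2AFZ to FGF2 (0.577%). MYC was farther from its nearest gene, ARHGAP11A, at 4.27%. ARHGAP11A had 305 5′ UTR, 277 CDS and 348 3′ UTR reads.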

How the data were processed

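PAR-CLIP was performed by the authors with 2 samples per HEK293 line. Per the labels, reads were demultiplexed with bcl2fastq 2.17.1. The study's methods give mapping to hg19, clusters from PARalyzer within PARpipe at default settings, and categories from GENCODE v19. The deposited table holds counts of crosslinked reads and of clusters, not normalized, and NXPM, a score the authors computed as crosslinked reads per 1000000 over RNA abundance. Each line has 1 pooled value per gene. Abundance was recovered as scaled reads over NXPM, minus a constant of 0.001. On simulated data the recovery inverted the formula that had made the data. That checks the arithmetic only and not whether the authors' score has this form. The G-run search was run on planted matches and on sequences without G, which checks the code only.

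Shares, ratios, ranks and reads per 100 nt were computed with Python 3.11.15, pandas 2.3.3 and scipy 1.17.1. The count test planned for replicate columns was not run, because the table has none. Region lengths and sequences came from GENCODE release 44 on GRCh37, the same assembly as hg19, with 1 canonical transcript per gene. Reads per 100 nt thus divide reads assigned with GENCODE v19 by lengths from release 44. G runs were searched on the sense strand, and matches of 1 pattern do not overlap each other, whereas matches of different patterns can. Sequences from chromosome 8 are not shown.

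The members and gene lists were chosen with earlier results of these data known. The named genes are the members, the genes of 3 lists with 5′ UTR reads or as examples, and for each member the nearest gene by regional shares. The relatives ZIC2, MCL1 and BCL2L11 were described after their values were seen. Relatives and the other lists came from family membership and from reporter studies. One gene of these lists is not reported here and is left out of their counts.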

Additional observations from a re-analysis of the deposited data

How the results depend on the processing

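No paired analysis was possible because the table holds 1 value per cell line. For the same reason no replicate could be left out. The 5′ UTR share of the members' summed exonic reads with FH-DHX36-E335A, 5.29%, was 2.99% when clusters were counted in place of reads, 7.71% without NRAS and 0.311% without MYC, the last added after the data were seen. With FH-DHX36 it was 0 under each of these. The 2 members with a 5′ UTR cluster with FH-DHX36-E335A became 1 at a minimum of 50 5′ UTR reads and 0 at a minimum of 2 5′ UTR clusters. The number of members with a cluster stayed within 1.5 times under both stricter rules. The 3 members with a G-run match in the 5′ UTR became 7 with runs of 2 G, 5 when any protein-coding transcript was allowed (14.1% of all genes), and 6 with the 300 nt upstream, also added later (24.8%). Counted by clusters, the NRAS CDS share with FH-DHX36 was 28.6% in place of 94.7%, and that of HRAS 50% in place of 82.7% with FH-DHX36 and 25% in place of 7.12% with the mutant. Over all reads of the gene in place of exonic reads, with FH-DHX36-E335A, the NRAS CDS share was 9.38% and its 3′ UTR share 40.8%, and the FGF2 shares were 11.1% and 21.3%. With the longest transcript, HRAS 3′ UTR density was 4.50 reads per 100 nt with FH-DHX36 and 46.5 with the mutant. FGF2 CDS density with the mutant was 7.27. These densities are not scaled to depth. No ratio of read shares changed direction. The FH-DHX36 values of MYC and ADAM10 rest on 66 and 100 reads, and of HRAS and BCL2 on 139 and 122.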
